A study of Mus musculus with 4 samples.

Results

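Striated muscle miRNAs in whole mouse lung are described here through 8 assays, of 750 miRNA assays on the cards. They were chosen by name: mmu-miR-1 with an assay for its rat counterpart (rno-miR-1), mmu-miR-133a, mmu-miR-133b, mmu-miR-206, mmu-miR-208a, mmu-miR-208b and mmu-miR-499, where mmu stands for mouse and is left out from here on. The lungs came from adult mice of 2 months kept for 72 h in 95% oxygen (hyperoxia), adults of the same age kept for 72 h in room air, newborns kept for 72 h in 95% oxygen and newborns kept for 72 h in room air. Newborns were collected at day 3, and their nursing dams alternated daily between both atmospheres. Each of the 4 groups had 1 library of right lung RNA, taken after the pulmonary artery was flushed with saline. How many animals a library holds, and their strain and sex, is not given in the sources used here.

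Vertebrate striated muscle makes a small set of miRNAs at very high levels. miR-1 and miR-133 are made in both heart and skeletal muscle, where miR-1 favours differentiation and miR-133 restrains serum response factor. miR-206 belongs to the same family as miR-1 and is the skeletal muscle form. miR-208a, miR-208b and miR-499 lie in introns of myosin heavy chain genes and mark heart muscle, with miR-208b and miR-499 also in slow skeletal fibres. Mouse lung holds striated muscle of its own, since heart muscle cells sheathe the pulmonary veins, and miR-133 has also been described in vascular smooth muscle of rats.

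Mature sequences of 5 of the 8 assays were matched in RefSeq (GRCm38.p6). They are printed 5′ to 3′ with the seed, bases 2 to 8, in capitals, because the seed groups these miRNAs by the targets they can bind.
miR-206: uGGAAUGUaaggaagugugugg
miR-133b: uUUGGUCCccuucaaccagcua
miR-208a: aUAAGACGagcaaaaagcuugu
miR-208b: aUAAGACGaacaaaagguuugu
miR-499: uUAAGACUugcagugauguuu
The cardiac forms nearly share a seed. It is identical in miR-208a and miR-208b, and miR-499 has the first 6 of its 7 bases. miR-208a and miR-208b differ at 3 bases (G10A, A16G and C18U, counted from the 5′ end, with the base of miR-208a first), so each assay has to separate closely related RNAs. The printed miR-208a lies on the minus strand at chr14:54949072-54949093 inside Myh6, which encodes the myosin heavy chain of the adult mouse heart. miR-208b lies on the same strand at chr14:54975710-54975731 inside Myh7, the heavy chain of the fetal mouse ventricle and of slow skeletal fibres, and its position is also spanned by the long non-coding gene Gm31251. miR-499 lies on the plus strand at chr2:155622893-155622913 inside Myh7b. miR-206 (chr1:20679055-20679076) and miR-133b (chr1:20682834-20682855) lie on the plus strand, both within the long non-coding gene Lincmd1, with 3686 bases between their hairpins.

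Levels are log2 values against the small nucleolar RNA snoRNA202 measured on the same card, so more RNA gives a higher number and 1 unit is a doubling at perfect amplification. A miRNA counts as detected at a threshold cycle (Ct) of 35 or below. By that limit 468, 468, 507 and 477 miRNA assays were detected in adult hyperoxia, adult room air, neonatal hyperoxia and neonatal room air, and 426 in all 4. With 1 library a group, the values of single library pairs carry no test. Technical error could be gauged only from 4 control RNAs that each card repeats. It came to an SD of 0.65 log2 between adult and neonatal room air, 0.95 between adult and neonatal hyperoxia, 0.26 between hyperoxia and room air in newborns and 0.33 in adults. No assay was repeated at the late cycles where the cardiac miRNAs lie. Vascular and epithelial miRNAs of lung were early in every library, with miR-126-5p at a Ct of 12.3 to 14.2 and miR-200c at 14.3 to 16.0. For age across both atmospheres, and oxygen across both ages, an additive limma model over the 426 assays gives an adjusted p. In whole lung, fewer muscle cells and less of a miRNA per cell cannot be told apart.

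Of the 8 assays, 7 were detected in all 4 libraries and miR-499 in 2. miR-133a was the earliest of them, at rank 64 by Ct in adult hyperoxia, 62 in adult room air, 62 in neonatal hyperoxia and 100 in neonatal room air. miR-208a ranked 412 of 468 detected assays in adult hyperoxia, 396 of 468 in adult room air, 397 of 507 in neonatal hyperoxia and 426 of 477 in neonatal room air. Ranks describe cycles, and assays differ in efficiency, so they are not ratios of RNA between miRNAs.

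**Figure D1:**
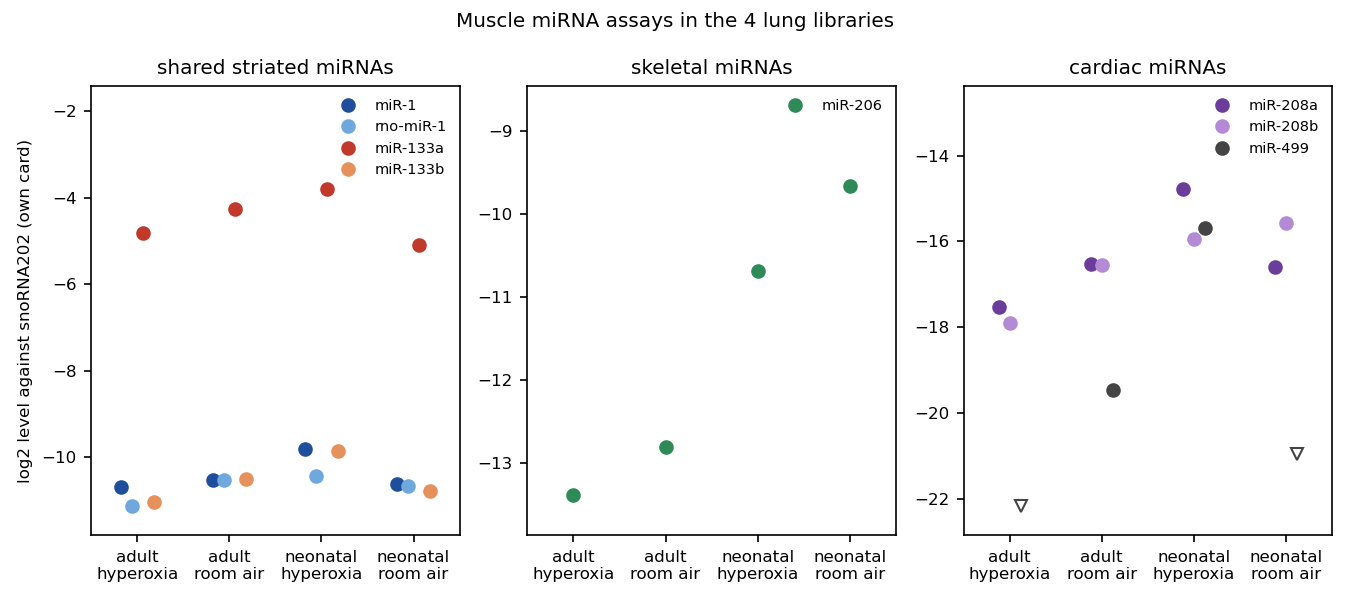
Log2 level against snoRNA202 of each assay in each library (1 library per group), in panels for shared striated, skeletal and cardiac miRNAs with different y axes. Filled points are measured and open triangles stand at the detection limit of Ct 35 where miR-499 was not detected. miR-206 is lowest in both adult libraries and the miR-208a and miR-499 points are highest in neonatal hyperoxia.

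Of the 7 assays in the additive model, skeletal miR-206 alone fell with age on the snoRNA202 scale. Its level was -13.38 log2 in adult hyperoxia, -12.80 in adult room air, -10.69 in neonatal hyperoxia and -9.67 in neonatal room air. Both adult libraries lay below both neonatal ones. Adult lung held 8.77-fold less than neonatal lung in room air (-3.13 log2) and 6.43-fold less in hyperoxia (-2.68 log2). Of all assays compared, 68 of 435 lay below miR-206 in room air and 102 of 450 in hyperoxia. In the additive model miR-206 fell by 2.91 ± 0.32 log2 with age (limma, SE; adjusted p = 0.0144 after Benjamini-Hochberg). Falls were common in this fit: 30% of the 426 assays fell and 5.63% rose. miR-206 fell under all 6 references tried, between -3.02 and -1.48 log2. The call was lost when assays without a detected Ct were kept in the fit (limma, adjusted p = 0.0554) and when variances were not moderated (adjusted p = 0.205).

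Shared striated miRNAs did not follow miR-206. miR-1 stood at -10.69 log2 in adult hyperoxia, -10.53 in adult room air, -9.80 in neonatal hyperoxia and -10.63 in neonatal room air. The values of adult hyperoxia, adult room air and neonatal room air lay close together, and neonatal hyperoxia was the highest. The rat-named assay of miR-1 gave -11.14 in adult hyperoxia, -10.54 in adult room air, -10.44 in neonatal hyperoxia and -10.67 in neonatal room air. It too was highest in neonatal hyperoxia, and it was lowest in adult hyperoxia.

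miR-133a stood at -4.83 log2 in adult hyperoxia, -4.25 in adult room air, -3.80 in neonatal hyperoxia and -5.09 in neonatal room air. miR-133b, the copy next to miR-206, stood at -11.04 in adult hyperoxia, -10.51 in adult room air, -9.87 in neonatal hyperoxia and -10.78 in neonatal room air. Both had their highest level in neonatal hyperoxia, and the adult and neonatal libraries overlapped. In the additive model their age terms were -0.09 ± 0.60 for miR-133a (limma, Benjamini-Hochberg adjusted p = 0.91) and -0.45 ± 0.50 for miR-133b (adjusted p = 0.517). The age terms were -0.39 ± 0.41 for miR-1 (adjusted p = 0.484) and -0.29 ± 0.38 for the rat-named assay (adjusted p = 0.575).

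The age direction of the shared striated miRNAs turned with the reference. U6, a nuclear RNA, had a Ct on the first card of 11.6 in adult hyperoxia and 11.9 in adult room air, against 9.29 in neonatal hyperoxia and 9.89 in neonatal room air. On the second card U6 was at 8.89 in adult hyperoxia, 8.74 in adult room air, 9.07 in neonatal hyperoxia and 9.27 in neonatal room air. The later U6 of adults was thus seen on the first card alone, which holds the shared striated assays. With U6 as reference the age terms were 2.42 log2 for miR-1, 2.52 for its rat-named assay, 2.72 for miR-133a and 2.36 for miR-133b, and all 4 were called higher in adults. With the median of each card as reference, the rat-named assay alone of these was called higher in adults, at 1.12. Within room air alone all 4 lay above 0 in adult against neonatal lung under every one of the 6 references, at 0.10 for miR-1, 0.13 for the rat-named assay, 0.84 for miR-133a and 0.27 for miR-133b with snoRNA202. Of these, 0.84 was above the technical SD of 0.65 and the others were below it.

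**Figure D2:**
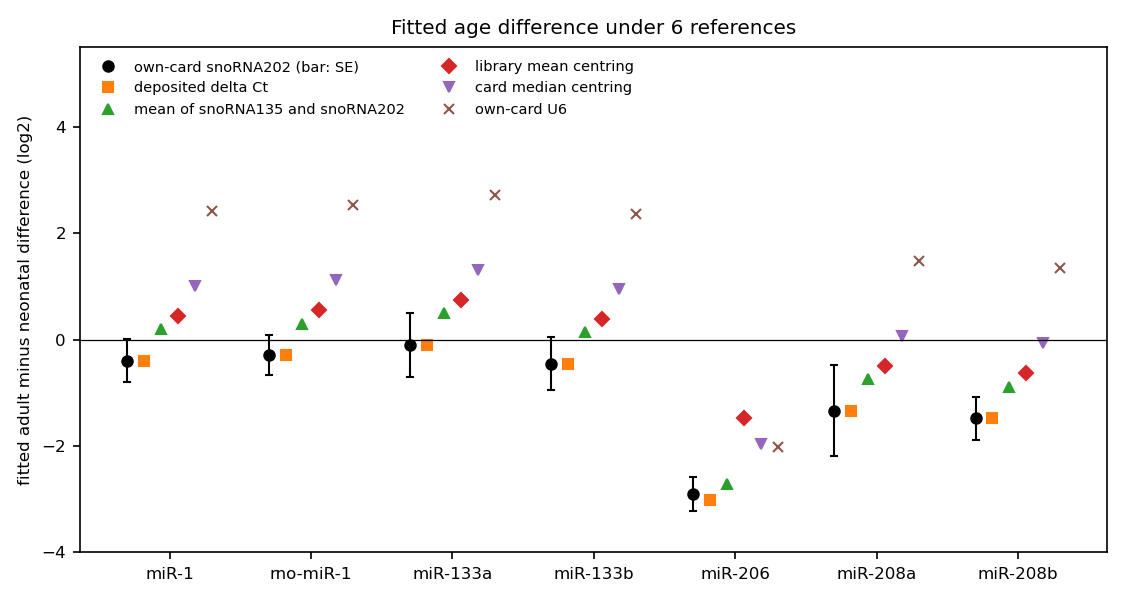
Fitted adult minus neonatal difference (log2) of the 7 assays detected in all 4 libraries, with 1 symbol for each of 6 references and the SE as a bar on the snoRNA202 value. miR-206 lies below 0 with every reference, while the other assays move from below 0 with snoRNA202 to above 0 with U6. miR-206 is the only one of the 7 on the second card, where U6 was not later in adults.

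Cardiac miRNAs were late in every library. miR-208a had Ct values of 30.4 in adult hyperoxia, 29.96 in adult room air, 28.3 in neonatal hyperoxia and 30.7 in neonatal room air. Its level was -17.53 log2 in adult hyperoxia, -16.52 in adult room air, -14.78 in neonatal hyperoxia and -16.60 in neonatal room air. One library, neonatal hyperoxia, stood above the rest, and the room air libraries of both ages differed by 0.08 log2.

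miR-208b, from the fetal myosin gene, had levels of -17.91 log2 in adult hyperoxia, -16.56 in adult room air, -15.94 in neonatal hyperoxia and -15.57 in neonatal room air. Both adult libraries were below both neonatal ones, as for miR-206, but falls of this size were common. Adult minus neonatal, miR-208b was at -0.99 log2 in room air, with 188 of 435 assays below it. In hyperoxia it was at -1.96, with 142 of 450 assays below it. Its age term was -1.47 ± 0.40 log2 (SE; limma, Benjamini-Hochberg adjusted p = 0.0717), which missed the threshold, and with U6 it turned to 1.34 and was called higher in adults. The age term of miR-208a was -1.33 ± 0.85 (limma, adjusted p = 0.294), and it turned to 1.48 with U6.

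miR-499, from Myh7b, was detected at a Ct of 32.9 in adult room air and 29.2 in neonatal hyperoxia, and not at 35.5 in adult hyperoxia or 36.9 in neonatal room air. Detection therefore did not sort by age or by oxygen. Against the limit of Ct 35, adult lung was at least 2.79-fold higher than neonatal lung in room air and at least 89.2-fold lower in hyperoxia. Late assays differed often in these libraries: in room air, of 77 assays with a mean Ct of 28 to 33, 23.4% were higher and 53.2% lower in the adult by 2-fold or more.

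Of the 7 assays measured in both room air libraries, 0 were higher and 1 (miR-206) was lower in the adult by 2-fold or more. Among all 435 assays compared, 16.6% were that much higher and 43% that much lower. The median of the 7 was 0.10 log2, beside -0.57 over all assays. In hyperoxia 0 were higher and 5 lower in the adult, where 10.9% of 450 assays were higher and 49.3% lower. The median of the 7 was -1.18, beside -0.98 over all assays. These 5 were miR-133a, miR-133b, miR-206, miR-208a and miR-208b. Of them miR-206 alone stayed below 0 with U6, and miR-133a and miR-133b were also above 0 with library mean or card median centring. miR-206 is also the only one of the 5 on the second card. There U6 moved it from -2.68 to -2.03 log2, whereas on the first card U6 moved miR-133a from -1.03 to 1.95. The card therefore enters this contrast.

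**Figure D3:**
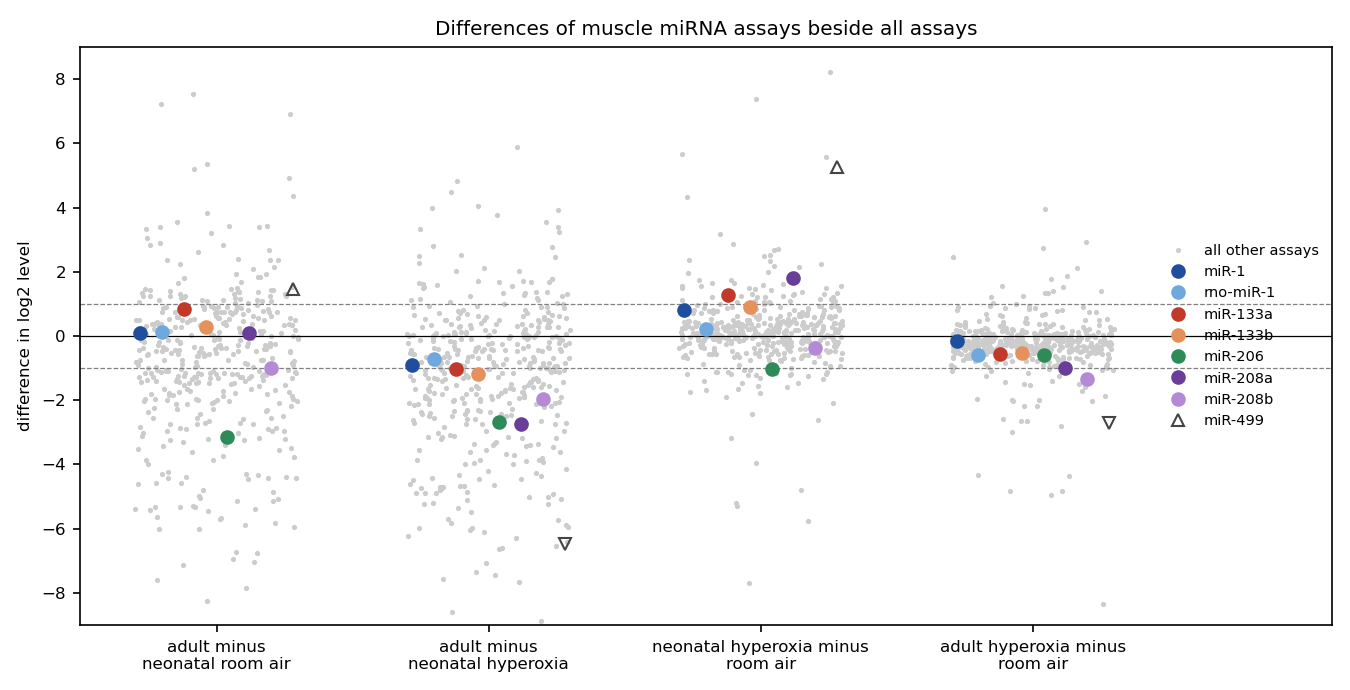
Difference in log2 level for 4 pairs of libraries, with all other assays in grey and the 8 muscle assays in colour. Dashed lines mark 2-fold, triangles are bounds for miR-499, and 16 grey points lie beyond the axis limits of 9 log2. In neonatal hyperoxia minus room air, 5 of the 7 measured muscle assays lie above 0, beside a median of 0.13 over all assays.

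The newborn hyperoxia library carried more of most shared and cardiac muscle miRNAs than the newborn room air library. miR-208a was 3.53-fold higher (1.82 log2), miR-133a 2.45-fold higher (1.29), miR-133b 1.89-fold higher (0.92) and miR-1 1.77-fold higher (0.83). miR-499 was at least 38.4-fold higher, a bound that rests on Ct 29.2 in hyperoxia against 36.9 in room air. The rat-named assay of miR-1 showed 0.23, less than the technical SD of 0.26. Skeletal miR-206 was 2.03-fold lower (-1.03), and miR-208b was at -0.37.

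By 2-fold or more, 2 of the 7 measured assays were higher and 1 was lower in that comparison, where 13.6% of 469 assays were higher and 8.53% lower. The median of the 7 was 0.83 log2, beside 0.13 over all assays and 0.24 over those of the first card, which holds every assay of the set but miR-206. miR-208a had 18 assays above it and 450 below it, and miR-133a had 39 above it and 429 below it. At late cycles such differences were more frequent. Of 84 assays with a mean Ct of 28 to 33, 32.1% were higher by 2-fold or more, against 9.39% of 330 assays with a mean Ct of 17 to 28, the range of miR-133a. The directions of all 7 were kept under the 6 references. Of these, the deposited delta Ct and own-card snoRNA202 gave identical values in this comparison, so they count as a single scale.

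In adult lung all 7 measured assays were lower after hyperoxia than in room air with snoRNA202, and 3 of them were lower under all 6 references. miR-208b was 2.55-fold lower (-1.35 log2) and miR-208a 2.01-fold lower (-1.004). miR-499 was at least 6.47-fold lower. miR-206 was at -0.58, miR-133a at -0.57, miR-133b at -0.53, the rat-named miR-1 assay at -0.595 and miR-1 at -0.16. The median of the 7 was -0.58, beside -0.24 over all assays and -0.29 over those of the first card. Values below 0 were thus usual here, and miR-1 had 258 of 448 assays below it and 189 above it.

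By 2-fold or more, 0 of the 7 were higher and 2 were lower after adult hyperoxia, where 3.79% of 448 assays were higher and 8.26% lower. Among 85 assays with a mean Ct of 28 to 33, the range of both called miRNAs, 16.5% were higher and 16.5% lower. miR-208a, miR-208b and miR-206 stayed below 0 under all 6 references. miR-1 was above 0 under 4 of them, and miR-133a, miR-133b and the rat-named miR-1 assay above 0 under 1, library mean centring.

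Over both ages the oxygen terms of the additive model passed no threshold. They were 0.41 ± 0.85 log2 for miR-208a, 0.36 ± 0.60 for miR-133a, -0.80 ± 0.32 for miR-206 and -0.86 ± 0.40 for miR-208b (SE; limma, Benjamini-Hochberg adjusted p = 0.988 for each). Over all 426 assays 0 were called for oxygen (limma), with 13 at an unadjusted p under 0.05. The model assumes the same oxygen effect at both ages. The values of both miR-1 assays, miR-133a, miR-133b and miR-208a ran in opposite directions at the 2 ages with snoRNA202, so their terms average over opposed differences. Whether the oxygen difference depends on age could not be tested with 4 libraries.

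**Figure D4:**
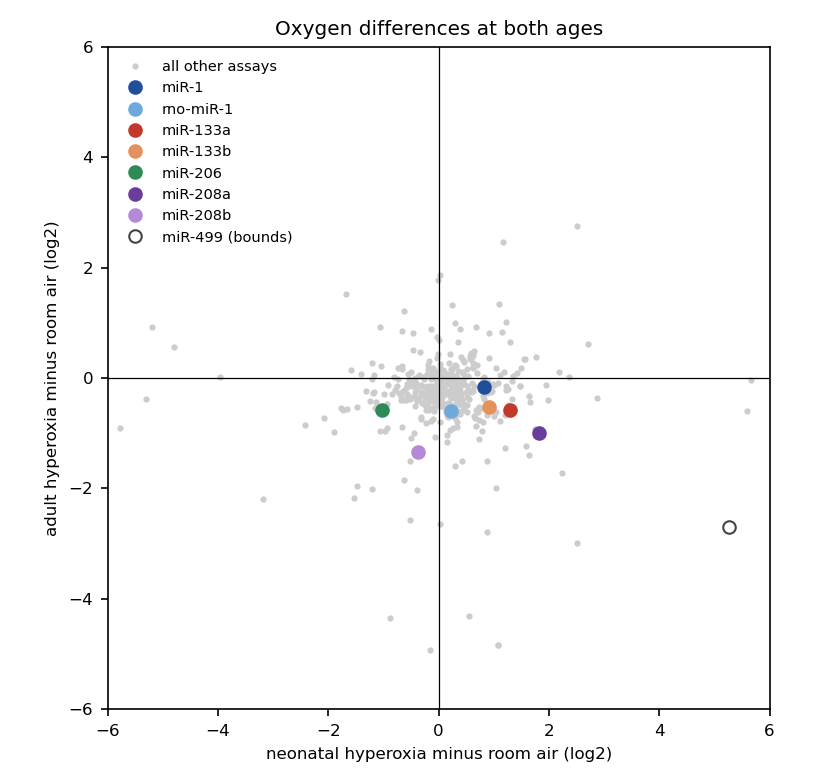
Hyperoxia minus room air in newborn lung (x axis) and in adult lung (y axis), both in log2, for the muscle assays in colour and all other assays in grey, with 5 grey points beyond the axis limits. miR-133a, miR-133b, both miR-1 assays, miR-208a and miR-499 lie to the right of 0 and below 0, and miR-206 and miR-208b lie below 0 on both axes.

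Assays that share a card also share its reference, so the gap between them in a library does not depend on the reference chosen. The gap of miR-208a over miR-208b was 0.38 log2 in adult hyperoxia, 0.04 in adult room air, 1.16 in neonatal hyperoxia and -1.03 in neonatal room air. Neonatal room air was the only library in which miR-208b was read before miR-208a. Adult minus neonatal, the gap differed by 1.07 log2 in room air and by -0.78 in hyperoxia, so it did not go one way with age in both atmospheres.

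Gaps between shared striated assays varied less, but these assays were read at earlier cycles, and the part of the cycle was not tested. The gap of miR-1 over miR-133a had a range of 0.74 log2, against 2.20 for miR-208a over miR-208b. For miR-133a over miR-133b the gap was 6.21 log2 in adult hyperoxia, 6.26 in adult room air, 6.06 in neonatal hyperoxia and 5.69 in neonatal room air, a range of 0.57. The 2 assays of miR-1 differed by 0.44 in adult hyperoxia, 0.01 in adult room air, 0.63 in neonatal hyperoxia and 0.04 in neonatal room air. They were level in both room air libraries and apart in both hyperoxia libraries. Over 34 pairs of mouse- and rat-named assays of a miRNA, the median disagreement on the newborn oxygen difference was 0.39 log2. Pairs that span both cards, such as that of miR-143, are among them, so card offsets enter this median. The disagreement of the miR-1 pair, with both assays on the first card, was 0.59.

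The gap between the assays of miR-206 and miR-133b, neighbours in Lincmd1, differed between ages and also between both newborn libraries. Whether the miR-133b assay also reads miR-133a was not tested, so this gap may not compare 2 products of Lincmd1 alone. The gap of miR-206 over miR-133b was -2.34 log2 in adult hyperoxia, -2.29 in adult room air, -0.83 in neonatal hyperoxia and 1.11 in neonatal room air. Adult minus neonatal, it differed by -3.40 log2 in room air and by -1.51 in hyperoxia, where the technical SD for a single assay was 0.95. Hyperoxia minus room air, the gap differed by -1.94 in newborns and by -0.05 in adults. These assays sit on different cards, so card offsets enter this gap: the median of all assays for adult against neonatal room air was -0.39 log2 on the first card but -0.97 on the other.

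**Figure D5:**
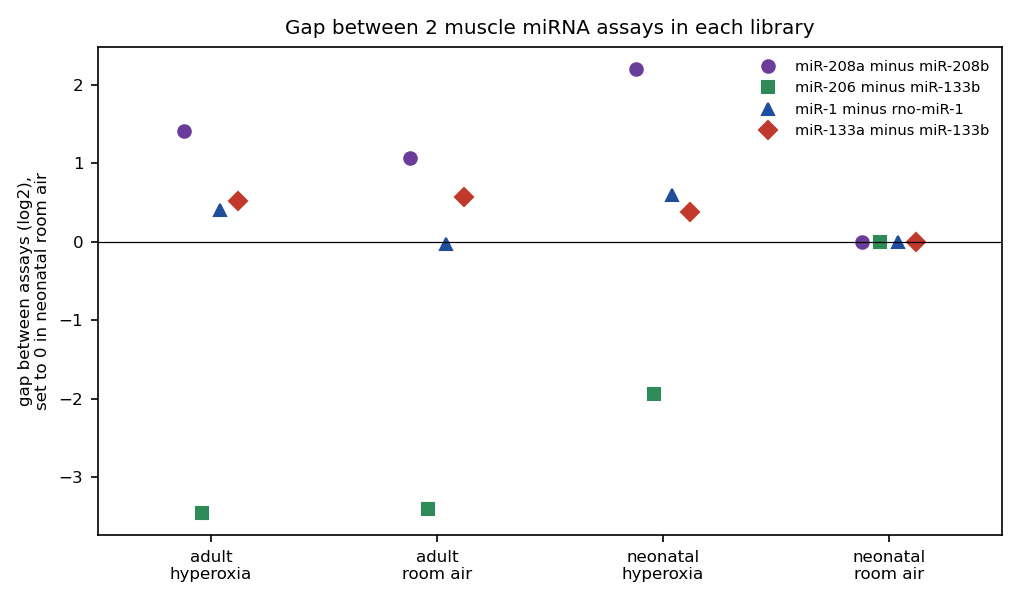
Gap in log2 level between 2 muscle miRNA assays in each library, each set to 0 in neonatal room air. The miR-206 minus miR-133b gap (different cards) is lowest in both adult libraries, at -3.40 in adult room air, the miR-208a minus miR-208b gap peaks at 2.20 in neonatal hyperoxia, and the other gaps move by 0.62 or less.

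Markers of other tissues also differed between these libraries, and their part in the muscle values was not tested. The liver miRNA miR-122, the 1 marker of its list, was detected at Ct 28.3 in adult hyperoxia, 32.8 in adult room air and 27.6 in neonatal hyperoxia, and not at 36.0 in neonatal room air. It was 3.95 log2 higher with oxygen in the adult and at least 6.88 higher in the newborn. The brain miRNA miR-124 was read at Ct 26.3 in adult hyperoxia, 29.8 in adult room air, 29.8 in neonatal hyperoxia and crossed no threshold in neonatal room air.

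Like miR-499, both were thus undetected in neonatal room air and present in neonatal hyperoxia, whereas in the adult they were higher with oxygen and miR-499 was lower. The other brain marker with an assay of its exact name, miR-9, moved by -0.30 with oxygen in the newborn and -0.45 in the adult. An assay named miR-128, where the list has miR-128a, was at 0.38 in the newborn and -0.23 in the adult. The brain level summed over miR-124 and miR-9 was -11.85 log2 in adult hyperoxia, -11.91 in adult room air, -12.60 in neonatal hyperoxia and -12.41 in neonatal room air. Epithelial miR-200c had the same directions as miR-133a, at 1.21 with oxygen in the newborn and -1.26 in the adult. Medians over all assays of the first card, which holds both, had these directions too, at 0.24 and -0.29. The other epithelial marker, miR-375, was at 0.07 and -0.17. The summed epithelial level was -2.23 in adult hyperoxia, -1.05 in adult room air, -0.72 in neonatal hyperoxia and -1.86 in neonatal room air.

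Smooth muscle markers had the same directions as miR-133a with oxygen, at smaller values. So did the medians over all assays of the first card, which holds them and miR-133a, at 0.24 log2 in the newborn and -0.29 in the adult. miR-145 was at 0.36 log2 in the newborn, above the technical SD of 0.26, and at -0.12 in the adult. miR-143 was at 0.09 in the newborn and -0.23 in the adult, both below the technical SD. Their part in the miR-133a values was not tested. Their summed level was -0.61 in adult hyperoxia, -0.48 in adult room air, -1.41 in neonatal hyperoxia and -1.70 in neonatal room air, higher in both adult libraries. Neither was called for age (limma, 0 of 2), although miR-145, with an age term of 1.18, was called higher in adults under 4 of the 6 references. The endothelial marker miR-126-5p had an age term of 0.57 (limma, Benjamini-Hochberg adjusted p = 0.241). Adult minus neonatal, it was at 0.75 log2 in room air and 0.39 in hyperoxia. An assay named miR-126, with no arm in its name, went the other way, at -0.18 in room air and -0.66 in hyperoxia. Erythroid miR-451 and miR-144 had age terms of 0.51 and -0.98 (0 of 2 called), and a summed level of -6.54 in adult hyperoxia, -6.40 in adult room air, -7.41 in neonatal hyperoxia and -6.51 in neonatal room air. All 3 of these lists had 0 calls for oxygen.

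Other miRNAs that act in skeletal myoblast differentiation without being muscle-specific numbered 8, of which 7 had an assay. With age 2 of the 7 fell and 0 rose, close to the shares over all 426 assays, of which 30% fell and 5.63% rose, and 0 were called for oxygen (limma). miR-503, which slows the cell cycle, fell by 5.18 log2 (limma, Benjamini-Hochberg adjusted p = 0.00725), and miR-214, also a mesenchymal miRNA, fell by 3.00 (adjusted p = 0.0127). miR-503 was called lower under all 6 references and miR-214 under 5. The others were not called, with age terms of 0.38 for miR-24, 0.25 for miR-26a, 0.84 for miR-27b, -0.20 for miR-181a and -0.91 for miR-486.

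Among 384 other assays whose Ct was at most 32 in every library, those with the profile nearest to that of miR-1 were miR-484, miR-126 and miR-500, with root mean square distances of 0.11, 0.14 and 0.14 log2 over the 4 libraries after centring. The median distance over all 384 was 0.69. Nearest to miR-133a were miR-132 (0.12), miR-200b (0.21) and the rat-named assay of miR-146b (0.27), where the median was 0.79. Nearest to miR-206 were miR-1274a (0.14), miR-1939 (0.18) and miR-1937b (0.27), where the median was 1.29. These last 3 sit on the second card with miR-206, as all 3 neighbours of miR-1 sit on the first card with it.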

How the data were processed

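The deposited tables hold threshold cycles (Ct) and Ct minus that of snoRNA202, both on a log2 scale that falls with more RNA, made by the authors from TaqMan assays after reverse transcription with Megaplex primer sets A and B and preamplification, per the labels' protocols. The software and threshold, not given in the sources used here, were the authors'. Wells without a crossing hold 40. In adult room air the deposited value of 385 of 768 wells did not match their own card's snoRNA202. The median gap was -0.225 cycles on the second card, which holds miR-206. Levels were therefore recomputed as own-card snoRNA202 Ct minus assay Ct. The range of Ct stands for depth.

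Libraries were grouped by their titles. Assays with a Ct of 35 or below were compared (bounds use 35) and counted from 2-fold (1 log2 unit). limma 3.58.1 (R 4.3.3) fitted age and oxygen to 426 assays with eBayes, Benjamini-Hochberg adjustment and a threshold of 0.05, on 1 residual and 2.16 prior degrees of freedom, and was tested on simulated data. An error of a card's reference is not in its SE. Labels do not say that libraries are single animals, so p-values reflect only how these libraries vary, which may be technical. The technical SD comes from 4 control RNAs, as the root mean square difference between both cards divided by the square root of 2. Alternatives were 5 other references, other detection limits, 3-fold and other variance models. For the muscle assays of the first card, the deposited delta Ct gave the same differences as own-card snoRNA202 and is no separate reference. Named are the 8 members, marker list members and the 3 assays nearest to miR-1, miR-133a and miR-206. No assay carried the exact name of the listed miR-378, miR-126-3p or miR-128a. Assays named miR-126 and miR-128 are given beside the lists and were left out of their sums and calls. The shares by range of Ct, the gaps between assays and the mouse and rat pairs were added after the data were seen. Members and lists were chosen with earlier results of these data known.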

Additional observations from a re-analysis of the deposited data

Results flagged for a closer look

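With snoRNA202 as reference, the oxygen difference ran in opposite directions in newborn and adult lung for 6 of the 8 assays. The difference between ages was not tested, since each age had 1 library per atmosphere. All 6 belong to the first card. Its assays as a whole leaned the same ways, with medians of 0.24 log2 in newborns and -0.29 in adults. How many other assays changed direction between the ages was not counted, so the 6 have no background share. On the snoRNA202 scale the newborn difference exceeded the adult one by 0.99 log2 for miR-1, 0.83 for its rat-named assay, 1.87 for miR-133a, 1.44 for miR-133b and 2.83 for miR-208a. For miR-499 it exceeded it by at least 7.96 log2, a bound against Ct 35 on both sides. The sizes depended on the reference and were lowest with library mean centring, at 0.15 for miR-1, -0.0081 for its rat-named assay, 1.03 for miR-133a, 0.61 for miR-133b and 1.99 for miR-208a. Under every one of the 6 references miR-208a was above 0 in the newborn and below 0 in the adult, which held for 1 of the 7 measured assays.

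An assay outside these comparisons, miR-1-2-as, named as antisense to a miR-1 gene, was within the detection limit of Ct 35 in both hyperoxia libraries and past it in both room air libraries, in neonatal room air by a narrow margin. Its Ct was 32.995 in adult hyperoxia, 38.5 in adult room air, 32.3 in neonatal hyperoxia and 35.2 in neonatal room air. Against the limit of Ct 35 it was at least 2.12 log2 higher with oxygen in the adult and at least 2.05 log2 higher in the newborn.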

How the results depend on the processing

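No paired analysis was possible because each group has 1 library and the labels carry no shared replicate numbers, and no library can be left out of the additive model, which would have no residual degree of freedom. No repeat well exists for these assays, so the precision at the late cycles of the cardiac miRNAs was not measured, and causes of the changes below were not tested except where a setting removes assays or evidence by construction.

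In 4 pairs, adult over neonatal room air (A), adult over neonatal hyperoxia (B), newborn oxygen (C) and adult oxygen (D), medians of the muscle assays and counts past 2-fold moved mainly with the reference. With U6 the median was 2.75 log2 in A and 1.80 in B, and miR-133a (1.95), miR-133b (1.80), miR-208a (0.23) and miR-208b (1.02) turned upward in B. Then 6 muscle assays were higher in A, 5 higher and 1 lower in B, 0 lower in C and 1 lower in D, and of all assays 248 were higher and 81 lower in A and 223 higher and 114 lower in B. For age, 5 muscle assays and 196 of all rose and 71 of all fell, with miR-1 at 2.42, rno-miR-1 at 2.52, miR-133a at 2.72, miR-208b at 1.34 and miR-133b at 2.36.

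With card median centring the median was 1.24 in A and 0.49 in B, where miR-133a was at 0.64 and miR-133b at 0.49. Muscle counts were 5 higher in A, 2 lower in B and 1 lower in D, and counts of all assays were 171 higher and 110 lower in A and 164 higher and 123 lower in B. For age 1 muscle assay (rat-named miR-1, 1.12) and 136 of all rose and 84 of all fell. With library mean centring the median was 0.080 in B and 0.072 in D, with miR-133a at 0.23 and miR-133b at 0.080 in B. Muscle counts were 1 higher in A, 2 lower in B and 0 lower in D, and counts of all were 147 higher and 110 lower in A, 154 and 120 in B and 30 higher in D. For age 99 rose and 77 fell. With snoRNA135 and snoRNA202 together, 1 muscle assay was higher in A, 3 lower in B and 1 lower in D, 78 of all were higher in B and 50 rose with age. The deposited delta Ct moved none of these counts by over 1.5 times.

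At 3-fold, 3 muscle assays were lower in B, 1 higher and 0 lower in C and 0 lower in D, and of all assays 36 were higher in A, 31 higher in B, 24 higher and 17 lower in C and 7 higher and 22 lower in D. With no detection limit, 1 muscle assay (miR-499) was higher in A, and of all assays 379 were lower in A, 75 higher in B, 117 higher and 66 lower in C and 56 higher and 69 lower in D. For age 0 muscle assays fell, and 6 of all rose and 72 fell. With a limit of Ct 32, 11 of all were higher in D. An intensity trend gave 38 rises with age, and without moderation of variances, on 1 degree of freedom, 0 rose and 0 fell, muscle assays included.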

Other observations

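Passenger strands gave little signal. miR-133a* crossed at Ct 29.9 in neonatal room air and crossed no threshold in the other 3 libraries, although miR-133a itself was lowest in neonatal room air. The rat-named miR-1* crossed no threshold in any of the 4 libraries.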
